A study of Mus musculus with 74 samples.

Results

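Axons are held up by neurofilaments and microtubules, and the genes of both were followed here in the L4 dorsal root ganglion (DRG) of mice after injury to the peripheral or the central branch of the sensory axon. The 10 genes were chosen by name among the 53379 genes with a read count, and all 10 passed the filter on low counts in both experiments. They encode the light, medium and heavy neurofilament chains (Nefl, Nefm and Nefh), peripherin (Prph), alpha-internexin (Ina), the beta tubulins Tubb2a, Tubb2b, Tubb3 and Tubb6, and the alpha tubulin Tuba1a.

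The first experiment sequenced whole L4 DRG of female wild-type C57BL/6 mice aged 10 to 12 weeks, 4 uninjured and 4 taken 1d after spinal cord injury (SCI), a hemisection of the dorsal thoracic cord that cuts the ascending central branch. The second sequenced YFP-positive dorsal column neurons sorted by FACS from L4 DRG of female Thy1YFP16 mice aged 10 to 20 weeks, in which the Thy1 promoter drives YFP in large-diameter sensory neurons. It held 22 mice, 6 naive and 4 each at 1d and 3d after SCI or after sciatic nerve injury (SNI), a crush that leaves the central branch intact. Each mouse gave 3 wells of about 100 cells, which are technical replicates and were summed, so that n counts mice. All FACS samples, naive ones included, went through papain and collagenase and the sorter, whereas the whole DRG was homogenised directly. The genotype label of the FACS wells ends in a number that is different in each of the 66 wells, and the strain label, which is the same in all of them, was used. Whole DRG after SNI and DLK knockout DRG were not analysed here.

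Neurofilaments are intermediate filaments assembled from Nefl together with Nefm and Nefh, and with Ina or, in peripheral neurons, Prph as a further partner. They are most abundant in large myelinated axons and set axon calibre. Microtubules are polymers of alpha and beta tubulin dimers and carry axonal transport, and vertebrates have several isotypes of each from separate genes. Tubb3 is the isotype used to mark neurons, Tubb2a, Tubb2b and Tuba1a are abundant in growing axons, and Tubb6 is a divergent isotype found in many cell types. Regrowth of a crushed peripheral nerve is classically described as a shift of the cell body from neurofilament towards tubulin synthesis.

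The sequences of the beta tubulins are shown because their similarity bears on how well reads can be assigned to each gene. Beta tubulin isotypes differ most at the carboxy-terminal tail, which lies at the end of the coding sequence. The last 60 coding bases, stop codon included, are given 5′ to 3′ on the gene's own strand from the GENCODE vM21 transcripts, with capitals at the positions where a gene differs from Tubb2a. Tubb2a lies on the minus strand at chr13:34074468-34074527 (GRCm38), Tubb2b on the minus strand at chr13:34127471-34127530 and Tubb3 on the plus strand at chr8:123421623-123421682.
Tubb2a: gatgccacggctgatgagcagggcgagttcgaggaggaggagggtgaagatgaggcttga
Tubb2b: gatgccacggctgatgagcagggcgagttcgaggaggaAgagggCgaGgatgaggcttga
Tubb3: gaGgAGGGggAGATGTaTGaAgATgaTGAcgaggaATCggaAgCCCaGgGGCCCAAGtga
Tubb2b differed from Tubb2a at 3 of these 60 bases and Tubb3 at 35. Before that stretch Tubb2a and Tubb2b were identical at 96.6% of 1278 coding positions, whereas Tubb3 matched either of them at 85.1% and Tubb6 matched Tubb2a at 84.6%.

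The 10 genes lie at separate loci except for the pair Nefl and Nefm. On GRCm38, Nefl spans chr14:68083863-68089095 on the plus strand and Nefm chr14:68082590-68124846 on the minus strand. The last exon of a second Nefm transcript runs over 1108 bases of the first exon of Nefl, which is 32.78% of the exon length of Nefl. The strand setting of the counting is not given in the sources used here, and without it reads from that stretch cannot be told apart. Ina (chr19:47014698-47025327, plus) overlaps the end of Nt5c2 on the other strand over 456 exon bases. All 50-base windows of a single transcript per gene were searched for in transcripts of other genes. In Tubb2a 49.6% were found there, in Tubb2b 39.3% and in Tuba1a 75.5%, mostly in Tubb2b, Tubb2a and Tuba1c respectively. The share was 31.8% in Nefl and 12.8% in Ina, found only in Nefm and Nt5c2. Tuba1a also overlaps the gene model Gm49450 on the same strand over 473 exon bases, 26.23% of its exon length. The levels of Tubb2a, Tubb2b and Tuba1a are therefore uncertain where reads match more than one gene, and those of Nefl, Nefm and Ina where they overlap another gene. Nefh (chr11:4938754-4948064, minus), Prph (chr15:99055174-99058978, plus), Tubb3 (chr8:123411424-123422015, plus) and Tubb6 (chr18:67390717-67402749, plus) held no shared window. For Nefm the transcript used also held none, but the second Nefm transcript shares 1108 bases with Nefl, 19.16% of the exon length of Nefm.

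Reads assigned to genes came to between 21959030 and 44493319 per mouse in whole DRG and between 30518187 and 83599972 in FACS neurons. Levels below are CPM, read counts scaled to the total on genes (with TMM factors). The term "per kb" divides them by exon length, the union of all annotated exons, so that genes can be compared. For Nefm this is 5782 bases and includes the second transcript that runs over Nefl, so its level per kb depends on that annotation. The groups carried the marks of their labels. The injury genes Atf3, Jun, Sox11 and Gap43 together took a median of 0.0541% of reads in naive FACS mice (range 0.0215 to 0.149), 0.300% at 1d and 0.249% at 3d after SNI, and 0.0591% and 0.0822% at 1d and 3d after SCI. Many FACS wells held more reads on glia markers than on neuronal ones. In 24 of the 66 wells, 9 genes of satellite glia and Schwann cells (Fabp7 and S100b among them) took more reads than 8 neuronal genes that are not among the 10, and these wells are called glia-rich. Glia-rich wells were spread over the groups as 8 of 18 naive wells, 5 of 12 at SNI 1d, 4 at SNI 3d, 3 at SCI 1d and 4 at SCI 3d. The neuronal genes took a median of 0.0315% of their reads (0.00386 to 1.41), against 1.73% in the other wells (1.01 to 2.30). Some glia-rich wells thus still held neuronal mRNA, such as well a of naive replicate 5 (0.617%) and of naive replicate 6 (1.41%). In 4 mice, naive replicates 5 and 6, SNI 3d replicate 3 and SCI 3d replicate 3, every well was glia-rich. All 4 carry "FACS2018" in their titles, and no other naive mouse does.

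All 10 genes had a lower median in the glia-rich wells. Nefl had a median of 68.9 CPM in the 24 glia-rich wells (range 7.88 to 5672) and 4073 CPM in the other 42 (1986 to 8420). Tubb3 had 69.3 CPM (26.9 to 9800) and 10634 CPM (3904 to 19558). The difference was smallest for Tuba1a, with medians of 754 and 2371 CPM. Tubb6 had 4.75 CPM (0.207 to 918) and 180 CPM (4.45 to 1990), so that it also varied widely among the wells that were not glia-rich. Those wells come from naive, SNI and SCI mice, so that this range also holds the difference between groups. A smaller number of neurons in a well and less mRNA per neuron cannot be told apart in these data. The FACS comparisons were therefore made with all wells and again without the glia-rich ones, which leaves 18 mice, 4 of them naive. Those 4 naive mice are all titled "FACS", whereas each injured group keeps mice titled "FACS2018". Without the glia-rich wells, injury and title set are thus partly confounded in the comparisons with naive mice.

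**Figure D1:**
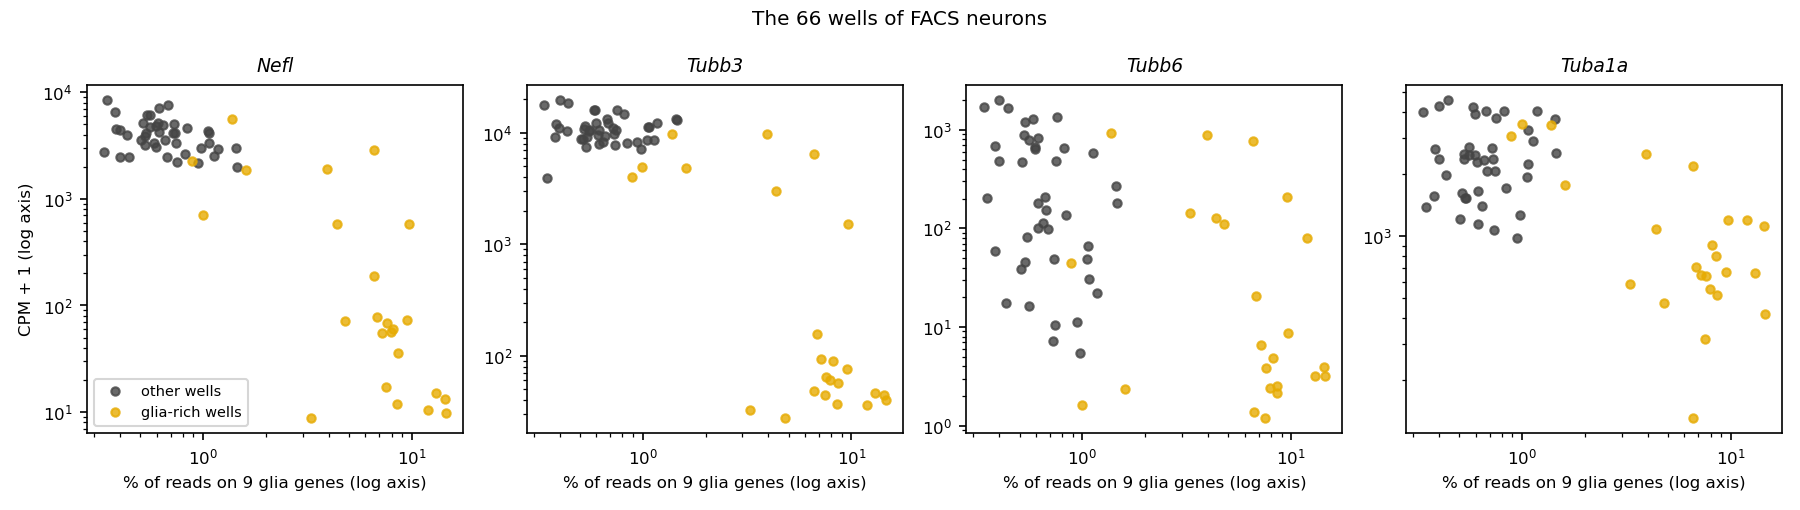
Level of 4 of the genes in each of the 66 FACS wells (CPM + 1, log axis) against the percentage of the well's reads on 9 glia genes (log axis), with glia-rich wells in yellow and the others in grey. The Nefl and Tubb3 levels of the other wells lie together at the upper left and most glia-rich wells lie far below them. Tubb6 spreads from 4.45 to 1990 CPM in the other wells, which pool naive, SNI and SCI mice.

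Without injury, Tubb3 had the highest level per length in both kinds of sample and Tubb6, Ina and Tubb2b had the lowest. In uninjured whole DRG the order was Tubb3 at 1734 ± 123 CPM per kb (SD, n = 4), Nefl at 1534 ± 75.8, Prph at 1361 ± 106, Tuba1a at 803 ± 42.0, Nefh at 800 ± 170, Nefm at 435 ± 88.4, Tubb2a at 331 ± 8.19, Tubb2b at 75.7 ± 4.45, Ina at 7.52 ± 0.884 and Tubb6 at 6.52 ± 1.94. The ranges of neighbours in this order overlapped for Tubb3 and Nefl, Nefl and Prph, Tuba1a and Nefh, and Ina and Tubb6, and were apart for the rest. The place of Nefm in this order, and whether it overlaps Nefh, depend on the exon length taken for Nefm. In naive FACS neurons Tubb3 had 3594 ± 1816 CPM per kb (SD, n = 6), Tuba1a 1032 ± 214, Nefl 948 ± 622 and Prph 176 ± 52.0. Most neighbours in the FACS order overlapped, and 2 of the 6 naive mice had glia-rich wells only. Without the glia-rich wells the naive levels per kb were 5437 ± 595 (SD, n = 4) for Tubb3 and 1543 ± 362 for Nefl, followed by Tuba1a at 1133 ± 219, Nefh at 509 ± 75.4, Nefm at 399 ± 113, Tubb2a at 304 ± 60.5, Prph at 228 ± 47.7, Tubb6 at 40.0 ± 30.5, Ina at 19.3 ± 27.5 and Tubb2b at 9.55 ± 8.40.

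**Figure D2:**
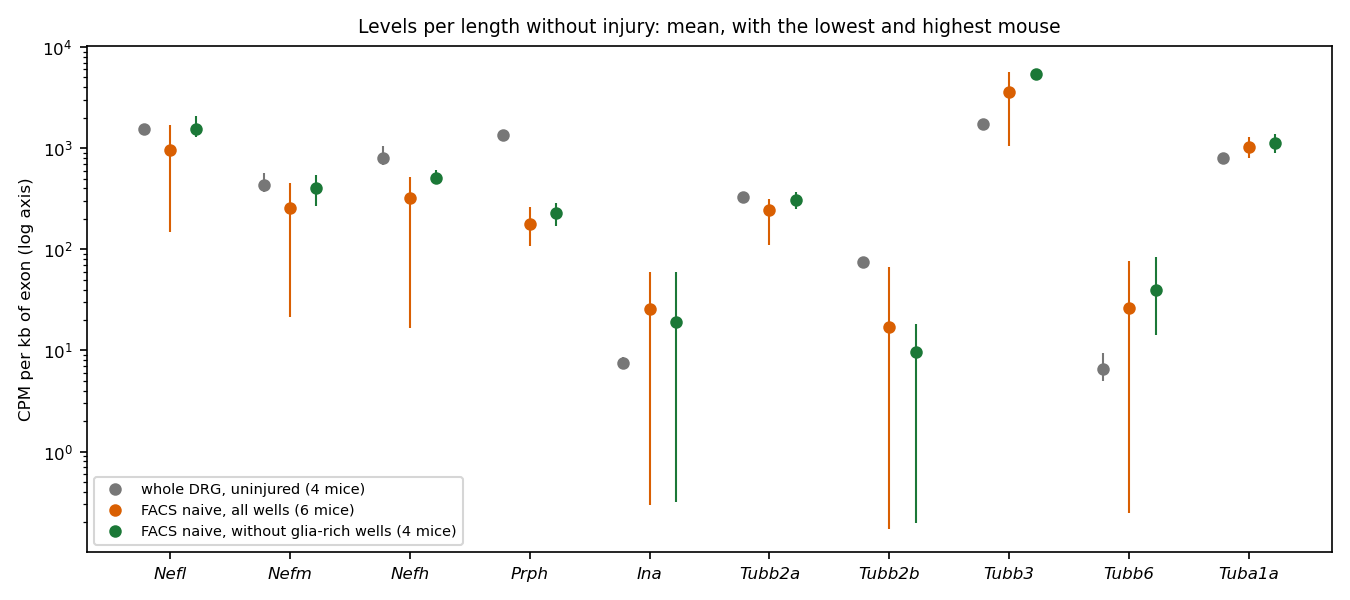
Mean CPM per kb of exon (log axis) of the 10 genes without injury, in whole DRG, in naive FACS neurons with all wells, and in naive FACS neurons without glia-rich wells. Lines run from the lowest to the highest mouse. Prph and Tubb2b lie below whole DRG in the FACS neurons, and Tubb3 and Tubb6 above it once the glia-rich wells are left out.

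The FACS neurons differed from whole DRG in peripherin and Tubb2b more than in the neurofilament triplet. Prph, which is most abundant in small unmyelinated neurons, had 2575 to 3029 CPM in the 4 uninjured DRG and 214 to 526 CPM in the 6 naive FACS mice, and the groups did not overlap. Its mean log2(CPM + 1) was lower by 3.05 in FACS neurons (adjusted p = 0.0201, exact permutation test, two-sided, Benjamini-Hochberg over 15503 genes). Tubb2b was lower by 3.80 and Nefh by 1.92, with the same adjusted p. Each had an unadjusted p of 0.00952, the smallest that 210 exact permutations can give. The other 7 genes did not pass, so that 3 of the 10 were called against 59.2% of all genes. The median log2 difference over all genes was -1.01. Without the glia-rich wells 6 of the 10 were called against 70.5% of all genes, each with an adjusted p of 0.0423 by the exact permutation test. Prph (-2.59), Tubb2b (-3.76) and Nefh (-0.63) were lower in FACS neurons, and Tubb3 (1.65), Tubb6 (2.30) and Tuba1a (0.48) were higher, beside a median over all genes of -0.785. Nefl (-0.01), Nefm (-0.14), Ina (-0.10) and Tubb2a (-0.14) stood near 0 on the log2 scale in those wells. Nociceptor markers (Scn10a, Calca and Tac1 among them) took a median of 0.270% of reads in uninjured DRG and 0.207% in naive FACS mice (range 0.00352 to 1.57), and large-fibre markers (Pvalb, Ntrk3, Ntrk2 and Spp1) 0.0794% and 0.141%. Strain, dissociation and library type differ between these groups too, and their effects cannot be told apart. Reads not aligned uniquely also made up more of the alignments of all FACS wells (37.0% to 52.3%) than of all whole DRG libraries (21.5% to 25.7%). Tubb2b, Tubb2a and Tuba1a share sequence with other genes, and the part of this difference in their values was not tested.

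Tubb6 rose in the FACS neurons at both times after SNI, and with all wells it was the 1 gene of the 10 that passed the test by edgeR. Per mouse, Tubb6 had 0.604 CPM in the lowest of the 6 naive mice, a median of 49.2 and 187 in the highest. At SNI 1d the 4 mice had 789, 471, 614 and 801 CPM, and at SNI 3d 1492, 561, 823 and 858 CPM. All 8 SNI mice lay above all 6 naive mice. The group means were 64.0 ± 64.7 CPM in naive mice (SD, n = 6), 669 ± 157 at SNI 1d and 933 ± 396 at SNI 3d (SD, n = 4 each).

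In the model with 2 factors of unwanted variation (RUVr), the log2 fold change of Tubb6 was 4.001 ± 0.719 (SE) at SNI 1d, a 16.0-fold rise (adjusted p = 0.026, edgeR quasi-likelihood test, Benjamini-Hochberg over 23507 genes). At SNI 3d it was 4.56 ± 0.736, a 23.5-fold rise (adjusted p = 0.020, edgeR). So 1 of the 10 genes was called at each time, against 0.519% of all genes tested at 1d and 0.442% at 3d. DESeq2 with the same factors called 1 of the 10 at 1d, Tubb6, against 6.05% of all genes, and 4 at 3d, Tubb2a, Tubb2b, Tubb3 and Tubb6, against 8.71%. The median log2 fold change over all genes was 0.15 at 1d and -0.01 at 3d, and without the glia-rich wells -0.17 and -0.01. Tubb6 stayed called when any 1 of the 22 mice was left out, but it was called in 5 of 10 other settings at 1d and 6 of 10 at 3d. For some of those settings the share of all genes called is not given here. Without the RUVr factors its log2 fold change was 3.39 at 1d (adjusted p = 0.394, edgeR) and 3.87 at 3d (adjusted p = 0.231, edgeR). The replicates in "FACS" and "FACS2018" titles moved the same way with all wells. Their mean log2(CPM + 1) differences were 3.12 and 6.44 at 1d and 3.70 and 6.70 at 3d. These came from 2 SNI mice each and 4 and 2 naive mice and were not tested separately. Both naive mice titled "FACS2018" had glia-rich wells only.

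Tubb6 became a visible part of the beta tubulin pool after SNI. Dividing counts by exon length, Tubb6 made up a median of 0.426% of the mRNA of 8 beta tubulin genes in naive FACS mice (range 0.00659 to 1.04), 3.997% at SNI 1d (3.58 to 5.04) and 3.94% at SNI 3d (2.94 to 5.37). Tubb3 held most of that pool throughout, with a median of 73.5% in naive mice, 67.3% at SNI 1d and 70.6% at SNI 3d. Set against the reads of the 8 neuronal genes, Tubb6 had a median of 4.64 reads per 1000 neuronal reads in naive mice (range 0.157 to 11.9), 59.8 at SNI 1d (30.1 to 64.2) and 97.8 at SNI 3d (39.7 to 179). The naive and SNI ranges were apart in both ratios. In whole DRG, Tubb6 was 0.197% of beta tubulin mRNA in uninjured mice.

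**Figure D3:**
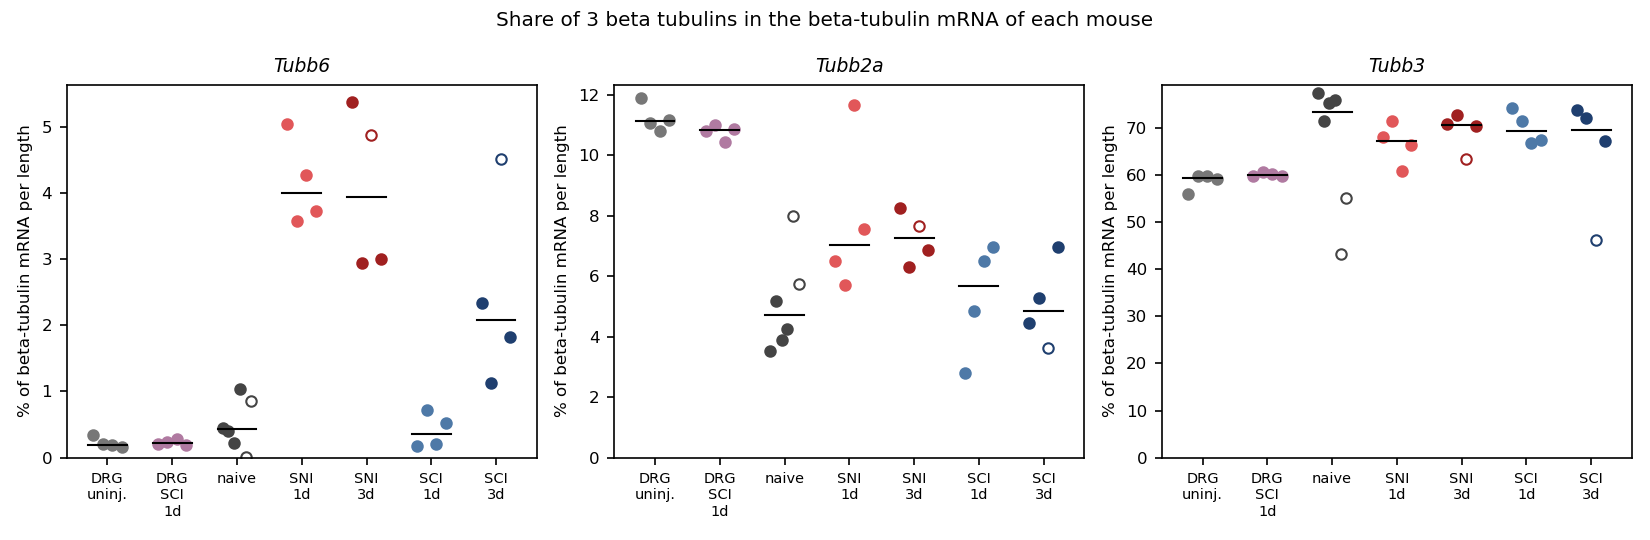
Share of Tubb6, Tubb2a and Tubb3 in the mRNA of 8 beta tubulin genes per exon length (%), 1 point per mouse, with group medians as lines and hollow points for mice with glia-rich wells only. Tubb6 lies between 2.94% and 5.37% in the 8 SNI mice and at or below 1.04% in the naive and SCI 1d mice, with the SCI 3d mice between 1.12% and 4.51%.

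The other tubulins had positive log2 fold changes after SNI with all wells, and their calls depended on the wells and on the tool. Tubb2a had a naive range of 178 to 506 CPM around a median of 421, and 671, 497, 1106 and 1076 CPM at SNI 1d, where replicate 2 overlapped the naive mice. At SNI 3d it had 1515, 792, 853 and 1295 CPM, all above the naive mice. Its log2 fold changes were 1.09 ± 0.396 (SE) at 1d (adjusted p = 0.242, edgeR) and 1.63 ± 0.404 at 3d (adjusted p = 0.105, edgeR), where DESeq2 gave 1.56 (adjusted p = 0.0117). In the wells that were not glia-rich, Tubb2a rose by 1.00 ± 0.176 at 1d (adjusted p = 0.015, edgeR) and by 1.47 ± 0.188 at 3d (adjusted p = 0.005, edgeR). In those wells the 4 naive mice had 415, 593, 399 and 553 CPM, the SNI 1d mice 872, 605, 1138 and 1554 CPM and the remaining 3 SNI 3d mice 1889, 879 and 1353 CPM, so that both SNI groups lay above all naive mice. By title set with all wells, the mean log2(CPM + 1) difference at 3d was 1.38 in "FACS" and 1.84 in "FACS2018" mice. The naive mice of the latter set had glia-rich wells only.

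Tubb3 had a naive median of 7989 CPM (1980.2 to 10454) and 15085, 10629, 8210 and 15414 CPM at SNI 3d, where replicate 3, the mouse with glia-rich wells only, overlapped the naive range. Its log2 fold change at 3d was 1.12 ± 0.306 (SE; adjusted p = 0.143, edgeR), with 1.06 by DESeq2 (adjusted p = 0.0388), and without the glia-rich wells 0.60 ± 0.195 (adjusted p = 0.190, edgeR). Per 1000 neuronal reads, Tubb3 had a median of 624 in naive mice (343 to 793) and 1226 at SNI 3d (752 to 1790). Tuba1a, the main alpha tubulin with 77.7% of alpha tubulin mRNA per length in naive FACS mice, had a log2 fold change of 0.69 ± 0.312 at 3d with all wells (adjusted p = 0.352, edgeR). In the other wells Tuba1a rose by 0.75 ± 0.186 (adjusted p = 0.088, edgeR), from 1827, 2248, 1610 and 2483 CPM in naive mice to 4196, 2444 and 3723 CPM, where SNI 3d replicate 2 overlapped the naive mice. Tubb2b, a close copy of Tubb2a with a low level here, had log2 fold changes of 2.00 ± 0.978 at 1d (adjusted p = 0.367, edgeR) and 2.73 ± 1.06 at 3d (adjusted p = 0.284, edgeR), and without the glia-rich wells 1.77 ± 0.769 (adjusted p = 0.250, edgeR) and 2.43 ± 0.811 (adjusted p = 0.204, edgeR). Its naive values ran from 0.390 to 155 CPM. Within a mouse, the highest of the 3 wells had a median of 3.69 times the Tubb2b level of the lowest among wells that were not glia-rich, against 1.31 times for Tubb3 and 6.23 times for Tubb6.

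The neurofilament genes did not pass the test after SNI with all wells, and Nefl was called lower at 3d in 1 of 10 other settings, the one without the glia-rich wells. Nefl, the core subunit, had a naive range of 501 to 5765 CPM around a median of 4007, in which the lowest values, 501 and 762 CPM, belonged to the 2 mice with glia-rich wells only. It had 3382, 3287, 3040.5 and 2910.3 CPM at SNI 1d and 2149, 3164, 2310.0 and 2367 CPM at SNI 3d, all within the naive range. The log2 fold changes were 0.20 ± 0.377 (SE; adjusted p = 0.902, edgeR) and 0.09 ± 0.403 (adjusted p = 0.983, edgeR). With those wells left out, Nefl had 6999, 5024, 4490 and 4344 CPM in the 4 naive mice and 2628, 3510 and 2472 CPM in the 3 SNI 3d mice, all below the naive mice, and the log2 fold change was -0.89 ± 0.221 (adjusted p = 0.088, edgeR). When wells of over 3% glia reads were left out instead, a limit chosen after seeing the data, it was -0.55 ± 0.225 and not called (adjusted p = 0.179, edgeR). At SNI 1d the log2 fold change of Nefl without the glia-rich wells was -0.46 ± 0.200 (adjusted p = 0.251, edgeR). The title sets moved in opposite directions for Nefl with all wells, with mean log2(CPM + 1) differences of -0.77 at SNI 3d in mice titled "FACS" and 1.92 in mice titled "FACS2018", whose 2 naive mice had glia-rich wells only. This difference between sets was not tested.

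The other intermediate filament genes were called by edgeR in neither set of wells. With all wells, their log2 fold changes at SNI 3d were 0.28 ± 0.319 (SE) for Nefm, 0.02 ± 0.258 for Nefh, 0.27 ± 0.231 for Prph and -0.17 ± 1.67 for Ina, with adjusted p from 0.653 to 1 by edgeR. At SNI 3d with all wells, Nefm had 1233, 1952, 858 and 1198 CPM and Nefh 782, 1788, 437 and 882 CPM, and replicate 3, the mouse with glia-rich wells only, was the lowest for both. Once the glia-rich wells were left out, the SNI 3d log2 fold change was -0.52 ± 0.228 (SE) for Nefm (adjusted p = 0.321, edgeR) and -0.73 ± 0.296 for Nefh (adjusted p = 0.287, edgeR), the chains with the long side arms. Prph, at 240 to 484 CPM at SNI 1d and 210.3 to 512 CPM at SNI 3d, had 0.34 ± 0.199 (adjusted p = 0.452, edgeR). Ina ranged from 0.967 to 193 CPM among naive mice and varied by a median of 13.1 times between the wells of a mouse, the most of the 10 genes by that measure. Its log2 fold change at SNI 3d without the glia-rich wells was 2.17 ± 1.23 (adjusted p = 0.430, edgeR), the highest of values from -1.71 to 2.17 over 10 other settings. By title set with all wells, the mean log2(CPM + 1) difference of Ina was 3.24 in "FACS" and -2.09 in "FACS2018" mice. The naive mice of the latter set had glia-rich wells only, and the difference between sets was not tested. Within the triplet, Nefl made up a median of 62.3% of the mRNA per length in naive FACS mice, 63.8% at SNI 1d and 61.5% at SNI 3d. These shares depend on the exon length taken for Nefm.

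Counting all 10 genes without the glia-rich wells, 2 were called at SNI 1d (Tubb2a and Tubb6) against 4.18% of 22379 genes. At SNI 3d 4 were called, Tubb2a, Tubb6 and Tuba1a up and Nefl down, against 1.46%. The naive mice in these comparisons are all titled "FACS", and the part of the title set in the calls was not tested. At SCI 1d in the same wells, Tubb2a had 256 and 443 CPM in mice titled "FACS" and 779 and 1249 CPM in mice titled "FACS2018". Tuba1a had 1125 and 1077 CPM against 2466 and 4309 CPM, whereas the title sets overlapped for Tubb6 and Nefl. Without wells of over 3% glia reads 2 were called at 1d (Tubb2a and Tubb6) against 6.47% of all genes, and 3 at 3d (Tubb2a, Tubb3 and Tubb6, not Nefl or Tuba1a) against 4.99%. In the wells that were not glia-rich Tubb6 had log2 fold changes of 3.18 ± 0.586 (SE) at 1d (adjusted p = 0.018, edgeR) and 3.54 ± 0.614 at 3d (adjusted p = 0.019, edgeR). With all wells, nociceptor markers took a median of 0.0372% of reads at SNI 1d (range 0.00731 to 0.9095). At SNI 3d it was 0.0205% (0.000173 to 0.0341), against 0.207% in naive mice (0.00352 to 1.57). After SCI it was 0.148% at 1d and 0.0483% at 3d. Large-fibre markers stood at 0.195% and 0.176% after SNI and 0.159% and 0.149% after SCI, against 0.141% in naive mice. The part of these markers in the results was not tested.

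**Figure D4:**
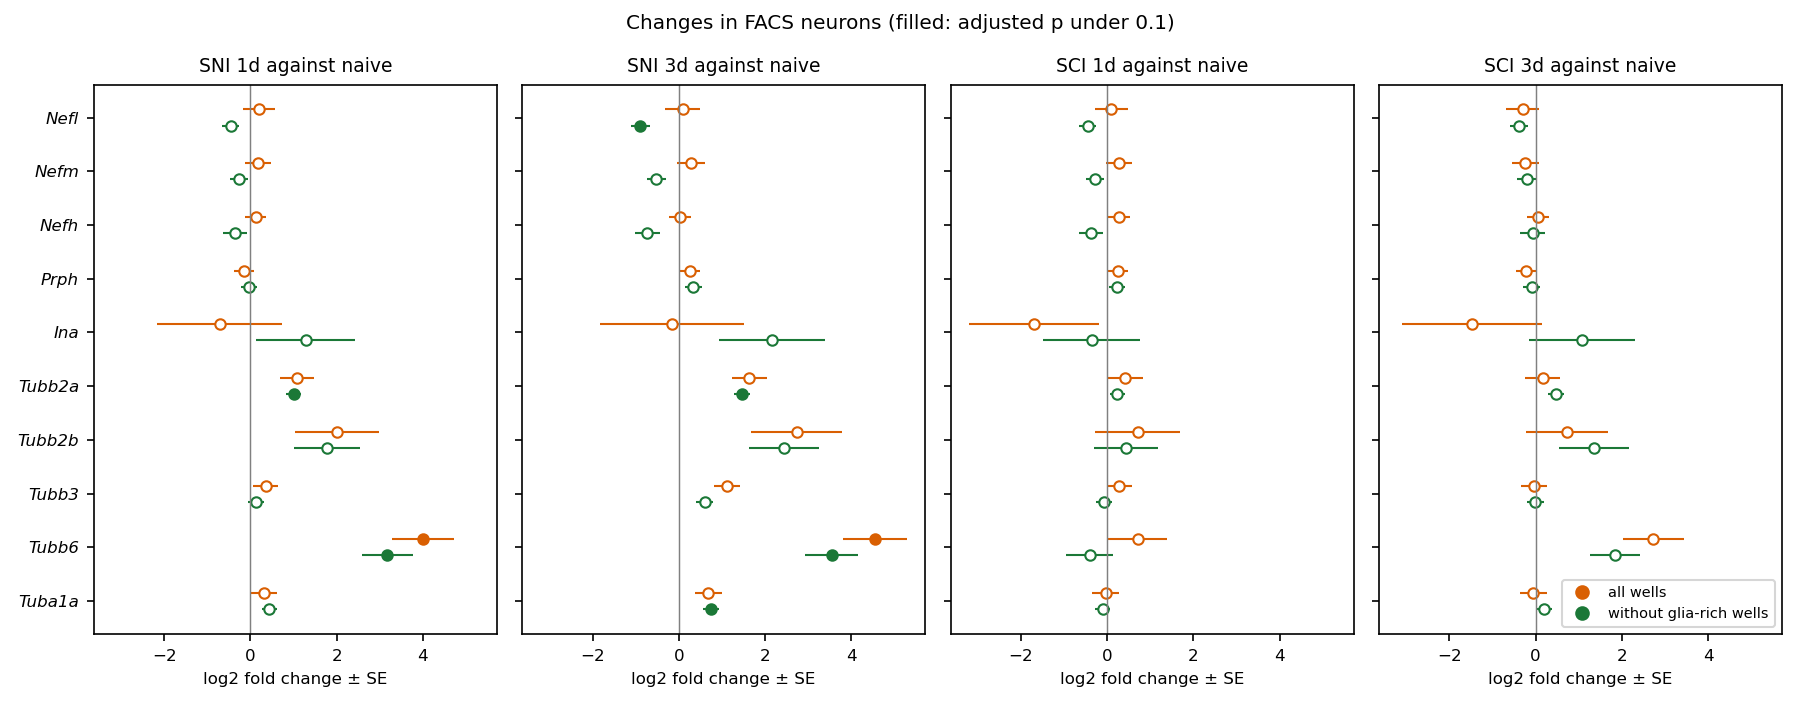
Log2 fold change of the 10 genes in FACS neurons against naive mice, with bars of 1 SE, for all wells (orange) and without glia-rich wells (green). Filled points passed an adjusted p of 0.1 (edgeR, 2 RUVr factors). Tubb6 is filled at both times after SNI in both colours, Nefl, Tubb2a and Tuba1a in green at SNI 3d and Tubb2a in green at SNI 1d, and no point is filled after SCI.

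After SCI none of the 10 genes was called by edgeR in FACS neurons at either time. At 1d this was 0 by edgeR, with 0 at an unadjusted p under 0.05 and 0 by DESeq2, against 0.0468% of all genes tested by edgeR and 4.56% by DESeq2. At 3d it was 0 by edgeR, with 1 at an unadjusted p under 0.05 and 1 by DESeq2, against 0.0510% by edgeR and 4.65% by DESeq2. The gene in question was Tubb6. It had 20.0, 75.1, 26.3 and 124 CPM at SCI 1d, within the naive range of 0.604 to 187, and 369, 166, 187 and 311 CPM at SCI 3d. Replicates 2 and 3 lay inside the naive range and replicates 1 and 4 above it, and all 4 lay above all 4 SCI 1d mice. The log2 fold change against naive mice was 0.71 ± 0.689 (SE) at 1d (adjusted p = 0.777, edgeR) and 2.73 ± 0.707 at 3d (adjusted p = 0.441, edgeR), and DESeq2 with the same factors gave 2.69 at 3d (adjusted p = 0.00356). With glia-rich wells left out it was -0.41 ± 0.541 at 1d (adjusted p = 0.857, edgeR) and 1.84 ± 0.586 at 3d (adjusted p = 0.886, edgeR). As a share of beta tubulin mRNA per length, Tubb6 had a median of 0.362% at SCI 1d (0.175 to 0.716) and 2.08% at SCI 3d (1.12 to 4.51).

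The neurofilament genes and the other tubulins were called after SCI by neither tool, and their standard errors were wide. Nefl had 2268, 4222, 2539 and 2666 CPM at SCI 1d and 4836, 3552, 310.1 and 2322 CPM at SCI 3d, where the low replicate 3 is the mouse with glia-rich wells only. Its log2 fold changes were 0.10 ± 0.378 (SE) at 1d and -0.30 ± 0.384 at 3d (adjusted p = 0.852, edgeR), and without the glia-rich wells -0.45 ± 0.200 at 1d (adjusted p = 0.460, edgeR) and -0.39 at 3d. Tubb3 had 6485, 5751, 6487 and 12434 CPM at SCI 1d and 8929, 8164, 1471 and 8776 CPM at SCI 3d, with log2 fold changes of 0.28 and -0.05. SCI 1d replicate 4 was the highest of its group for Tubb3, Tubb6, Prph (721 CPM), Tubb2a (1108 CPM), Tubb2b (111 CPM) and Tuba1a (3821 CPM). Per 1000 neuronal reads, Nefl had medians of 224 at SCI 1d and 211 at SCI 3d against 227 in naive mice.

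In the direct contrast of both injuries, none of the 10 genes was called by edgeR with all wells. The mice did not overlap for Tubb6 at either time, but the share of all genes that were apart in this way was not counted. All 4 SNI 1d mice (471 to 801 CPM) lay above all 4 SCI 1d mice (20.0 to 124 CPM), and the log2 fold change of SNI over SCI was 3.29 ± 0.789 (SE; adjusted p = 0.366, edgeR), in a comparison where 0% of all genes passed by edgeR. Of the 10 genes 0 were called by edgeR, 1 had an unadjusted p under 0.05 and 1, Tubb6, was called by DESeq2 against 4.60% of all genes. Without the glia-rich wells Tubb6 was higher by 3.58 ± 0.598, or 12.0-fold (adjusted p = 0.010, edgeR), and Tubb2a by 0.77 ± 0.175 (adjusted p = 0.044, edgeR), so that 2 of the 10 were called against 3.12% of all genes. At 3d, Tubb6 was higher after SNI by 1.83 ± 0.747, Tubb2a by 1.47 ± 0.463 and Tubb3 by 1.17 ± 0.344, each with an adjusted p of 0.608 by edgeR. The 4 SNI 3d mice lay above the 4 SCI 3d mice for Tubb6 (561 to 1492 against 166 to 369 CPM) and for Tubb2a (792 to 1515 against 98.8 to 783 CPM). There 0 of the 10 were called by edgeR, 4 had an unadjusted p under 0.05 and 2, Tubb2a and Tubb3, were called by DESeq2 against 3.63% of all genes, and without the glia-rich wells 0 were called by edgeR, with 6 at an unadjusted p under 0.05, against 0.0134% of all genes. Between the times after SNI, Tubb3 was higher at 3d by 0.77 ± 0.340 (adjusted p = 0.503, edgeR) and Tubb6 by 0.55 ± 0.725 (adjusted p = 0.875, edgeR). Between the times after SCI, Tubb6 was higher at 3d by 2.02 ± 0.763 (adjusted p = 0.502, edgeR). In each of these 2 contrasts 0 of the 10 genes were called by edgeR and by DESeq2 and 1 had an unadjusted p under 0.05 by edgeR. Over all genes 0% passed by edgeR in both, and 3.75% after SNI and 4.33% after SCI passed by DESeq2. Without the glia-rich wells Tubb3 was higher at 3d after SNI by 0.47 ± 0.195 and Tubb6 by 0.37 ± 0.580, and after SCI Tubb6 was higher by 2.25 ± 0.591 (adjusted p = 0.735, edgeR). Again 0 of the 10 were called by edgeR, with 2 after SNI and 1 after SCI at an unadjusted p under 0.05, and 0% of all genes passed.

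**Figure D5:**
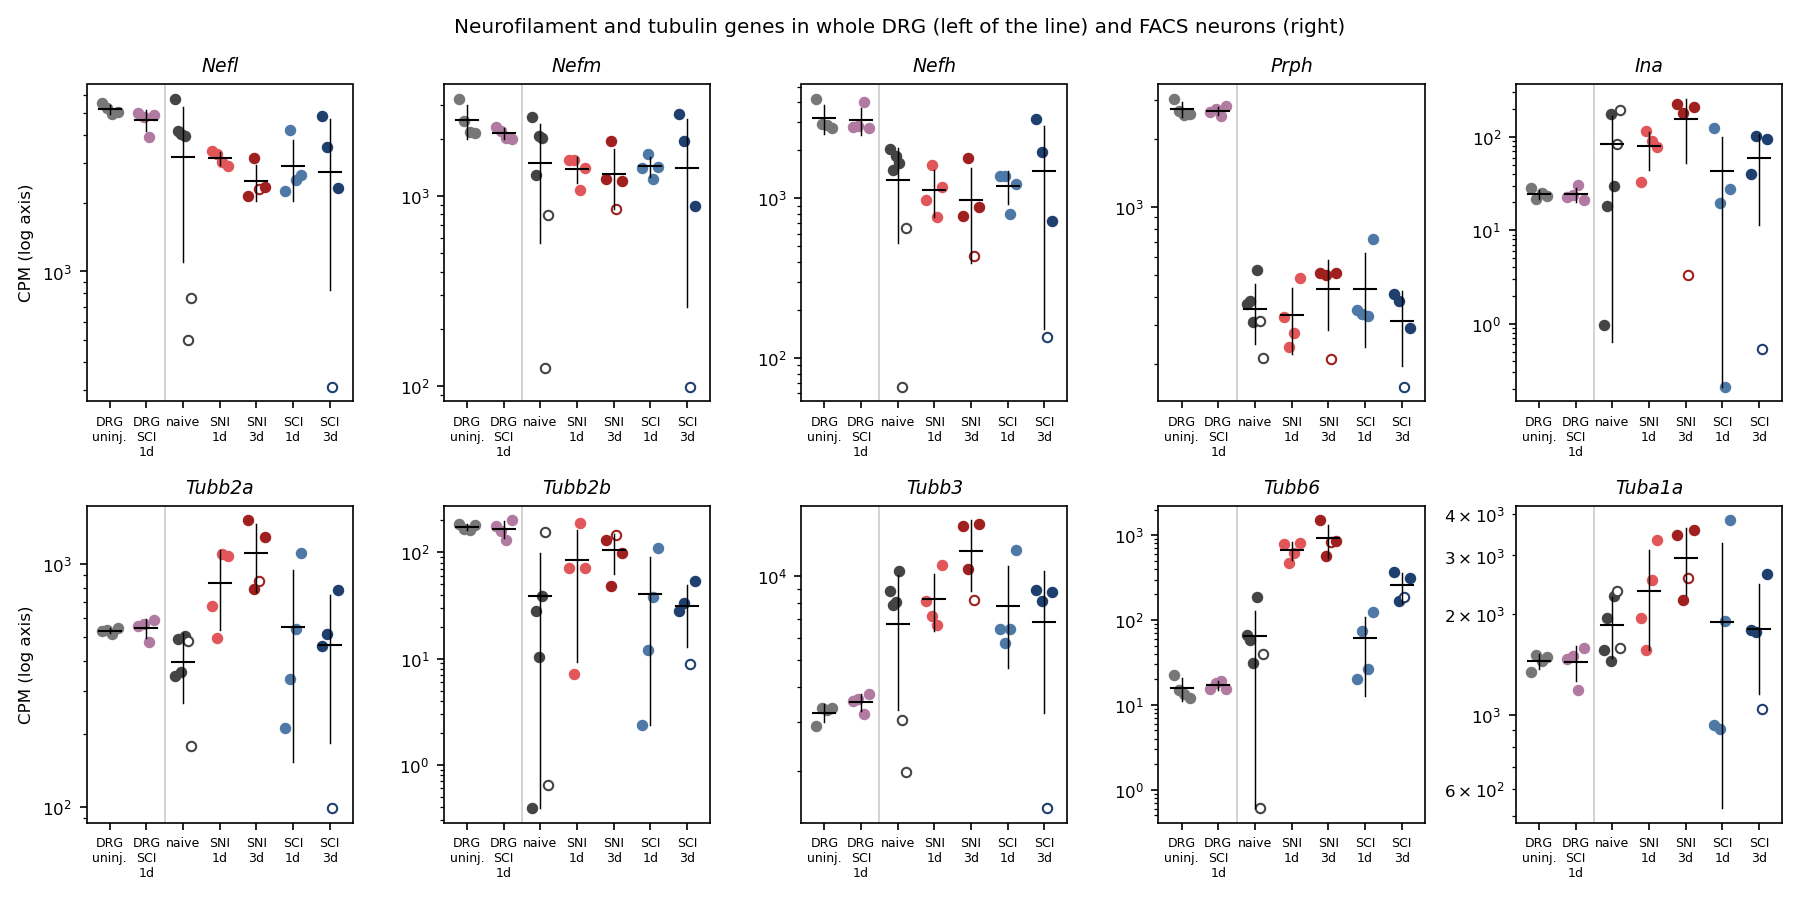
CPM of the 10 genes (log axis), 1 point per mouse, in whole DRG to the left of the line and FACS neurons to the right, with group means as bars and lines of 1 SD (cut at the lowest mouse where they would reach 0) and hollow points for mice with glia-rich wells only. Tubb6 stands between 471 and 1492 CPM in the 8 SNI mice, above the 6 naive mice, and the hollow points are the low Nefl values of the naive and SCI 3d groups.

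In whole DRG 1d after SCI none of the 10 genes changed past the test. Of the 10, 0 were called by edgeR, 0 had an unadjusted p under 0.05 and 0 were called by DESeq2, against 2.32% of 17616 genes by edgeR and 5.27% by DESeq2. Here the mice of a group were close together, so that the bounds are tighter than in FACS neurons. Nefl had 5511, 5259, 4939 and 5028 CPM in uninjured mice and 5015, 4803, 3919 and 4873 CPM after SCI, a log2 fold change of -0.16 ± 0.081 (SE; adjusted p = 0.413, edgeR). Nefm had 3247, 2493, 2185 and 2143 CPM and 2299, 2211, 2031 and 2002 CPM, a change of -0.24 ± 0.123 (adjusted p = 0.412, edgeR), with overlapping groups. Tubb3 had 2895, 3374, 3324 and 3363 CPM and 3571, 3613, 3198 and 3765 CPM, a change of 0.13 ± 0.072 (adjusted p = 0.460, edgeR). Tubb6 had 22.7, 15.1, 13.6 and 12.1 CPM in uninjured mice and 15.5, 18.1, 19.3 and 15.4 CPM after SCI, a change of 0.11 ± 0.179 (adjusted p = 0.819, edgeR). For the remaining 6 genes the values lay between -0.06 and 0.04. Nefh was high in 1 mouse of each group, at 4204 CPM in uninjured replicate 1 and 3993 CPM in SCI replicate 3 against 2746 to 2925 CPM in the other 6. Those 2 mice had the lowest share of the neuronal genes, 0.643% and 0.638% of reads against 0.675% to 0.715% in the rest, and the part of this share in the result was not tested.

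Further genes of the cytoskeleton were counted in 5 lists. Of these 82 genes, 0 were called by edgeR with all wells at SNI 1d and 0 at SNI 3d, against 0.519% and 0.442% of all genes, with 7 and 13 at an unadjusted p under 0.05. DESeq2 called 2 at 1d (2.44% of the 82 against 6.05% of all genes) and 11 at 3d (13.4% against 8.71%). The median log2 fold change at SNI 3d was 0.43 for 14 tubulin folding genes (chaperonin subunits and tubulin cofactors), 0.27 for 24 microtubule-associated genes, 0.09 for 12 other tubulins, 0.04 for 20 tubulin modifying and severing genes and -0.17 for 12 other intermediate filament genes and linkers, beside -0.01 over all genes. Without the glia-rich wells, 6 of the 82 were called by edgeR at SNI 1d (7.32% against 4.18% of all genes) and 5 at SNI 3d (6.10% against 1.46%).

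Among those, the growth-cone protein gene Stmn2, whose product destabilises microtubules, rose by 0.73 ± 0.172 (SE, log2 scale) at 1d (adjusted p = 0.045, edgeR) and by 1.24 ± 0.183 at 3d (adjusted p = 0.012, edgeR). Its relative Stmn4 rose by 1.98 ± 0.492 (adjusted p = 0.054, edgeR) and 2.47 ± 0.520 (adjusted p = 0.047, edgeR), and Map7d1, a microtubule-binding partner of kinesin, by 1.37 ± 0.317 (adjusted p = 0.041, edgeR) and 1.42 ± 0.335 (adjusted p = 0.074, edgeR). At 1d Clasp2, a microtubule plus-end protein, fell by 1.20 (adjusted p = 0.028, edgeR) and Map7d2 by 1.12 (adjusted p = 0.080, edgeR). At 3d the beta tubulin Tubb5 rose by 0.77 ± 0.161 (adjusted p = 0.046, edgeR) and Agtpbp1, a tubulin deglutamylase, by 0.80 ± 0.192 (adjusted p = 0.080, edgeR). After SCI in FACS neurons 0 of the 82 were called by edgeR at either time, with 4 and 3 at an unadjusted p under 0.05 and 1 and 2 called by DESeq2, against 4.56% and 4.65% of all genes by DESeq2. In whole DRG after SCI, 2 of the 82 were called by edgeR, which is 2.44% of them and near the 2.32% of all genes. Gfap, the intermediate filament of reactive glia, rose by 1.34 ± 0.331 (adjusted p = 0.095, edgeR), and Dcx, doublecortin, fell by 0.50 (SE 0.0931, adjusted p = 0.036, edgeR).

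Levels of some of the 10 genes varied together across the FACS mice, most closely those of the neurofilament triplet. Over the 22 mice, Pearson's r of log2(CPM + 1) was 0.935 for Nefl and Nefm, 0.960 for Nefm and Nefh and 0.886 for Nefl and Nefh, and 0.870 for Tubb2a and Tuba1a and 0.802 for Tubb2a and Tubb3. Tubb3 also had an r of 0.771 with Nefl and of 0.772 with Prph. With any other member, Ina had at most 0.323 and Tubb6 at most 0.534, both with Tubb2a. The mice share the glia-rich wells and the injury groups, so that these values describe the libraries, and no p is given. Among 10454 other genes, those most like each member were Ifitm10 for Nefl (r = 0.930), Fam57b for Nefm (0.952) and Nefh (0.947), D430019H16Rik for Prph (0.840), Sv2a for Ina (0.911), Stmn2 for Tubb2a (0.960), Bend5 for Tubb2b (0.841), Uhmk1 for Tubb3 (0.938), Sema6a for Tubb6 (0.924) and Klf7 for Tuba1a (0.914). Over the 8 whole DRG mice, in which 2 mice with high Nefh weigh heavily, the gene most like Nefh was Man1c1 (r = 0.997), and Pbxip1 was most like Tubb6 (0.996). Nefh and Ina had an r of 0.881 in these mice, and Ina and Tuba1a one of -0.945.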

How the data were processed

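RNA was sequenced from L4 DRG, and per the labels and methods the authors used Cutadapt and PRINSEQ for trimming, STAR 2.5.3a for alignment to GRCm38 and HTSeq 0.6.1 for counting per gene. The deposited values are whole-number counts, not normalized, for 53379 genes in 74 libraries, of which 53274 were named by GENCODE vM21. Between 33.1% and 66.9% of alignments fell on 5 lines that name no gene and were left out. Of these, reads not aligned uniquely made up 21.5% to 25.7% of whole DRG alignments and 37.0% to 52.3% of FACS alignments, which lowers genes that share sequence. Tables deposited by the authors hold log2 fold change and p-value columns from DESeq2, which were not used, and 123 columns of per-sample values that no sample label names, which were not used here.

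The 3 wells of a mouse were summed. The study removed outlier samples that the labels do not name, so all 22 mice were kept. Counts were tested with edgeR 4.0.16 (limma 3.58.1, R 4.3.3), TMM scaling, quasi-likelihood test and Benjamini-Hochberg adjustment over all genes tested, at an adjusted p under 0.1. Tested genes had 10 or more counts on average over the whole DRG libraries, or 20 or more reads in at least 1 FACS mouse, and the FACS model had 2 RUVr factors from gene-centred residuals as covariates. Naive FACS neurons and uninjured DRG were compared by an exact permutation test on log2(CPM + 1), CPM per total reads, for genes of at least 1 CPM in either group. DESeq2 1.42.0 and other settings were alternatives. The edgeR and permutation steps were tested on simulated data. Python 3.11.15 with pandas 2.3.3, numpy 2.4.6, scipy 1.17.1 and matplotlib 3.10.9 made the summaries.

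Every member of the gene set is named. Where groups of mice are said to lie apart or not to overlap, the share of all genes doing so was not counted. Likeness names the gene with the highest Pearson's r of log2(CPM + 1) among other genes of at least 5 mean CPM. Some genes of the lists are not reported by name here. The members and gene lists were chosen with earlier results of these data known. Nothing states that the mice of a group were handled separately, so p-values measure the spread between these mice. With between 30518187 and 83599972 reads per FACS mouse, counting error is small beside that spread.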

Additional observations from a re-analysis of the deposited data

Results flagged for a closer look

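In 11 of 70 groups of 4 to 6 mice, the highest or lowest mouse of one of the 10 genes stood apart from the rest by Dixon's test, which chance does in about 1 of 20 groups. In whole DRG, Nefh was 4204 CPM in uninjured replicate 1 against 2746 to 2925 CPM in the other mice of its group, and 3993 CPM in SCI replicate 3 against 2759 to 2853 CPM. Tubb3 was 2895 CPM in the same uninjured mouse against 3324 to 3374 CPM. Several of the FACS values belong to mice with glia-rich wells only. In naive replicate 5, Nefh was 66.02 CPM (653 to 2049 in the others) and Tubb6 0.604 CPM (31.5 to 187). In naive replicate 6, Tubb2a was 178 CPM (347 to 506). In SNI 3d replicate 3, Prph was 210.3 CPM (498 to 512) and Ina 3.35 CPM (180.3 to 222), and in SCI 3d replicate 3 Tubb3 was 1471 CPM (8164 to 8929). SCI 1d replicate 4, the mouse of its group with no glia-rich well, had the high values of 721 CPM for Prph (327 to 347) and 12434 CPM for Tubb3 (5751 to 6487).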

How the results depend on the processing

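Among alternatives that left out no mouse, 63 of 82 counts of called genes stayed the same. DESeq2 with the RUVr factors called 4 of the 10 genes at SNI 3d (8.71% of all genes), 1 at SCI 3d (4.65%), 1 for SNI 1d against SCI 1d (4.60%) and 2 for SNI 3d against SCI 3d (3.63%). Without glia-rich wells, 2 were called at SNI 1d, 4 at SNI 3d, 2 for SNI 1d against SCI 1d and 6 for naive FACS neurons against whole DRG. Without wells of over 3% glia reads, a limit chosen after seeing the data, 2 were called at SNI 1d and 3 at SNI 3d (Tubb2a, Tubb3 and Tubb6, not Nefl or Tuba1a). With factors from residuals not centred, with no factor and with the FACS2018 title as a covariate, 0 were called at either time after SNI, and with naive mice of the same day 0 at SNI 1d; the cause was not tested. Not every pair of same-numbered mice of a title set correlated over 0.1 (r from -0.158 to 0.257 for whole DRG and from 0.0434 to 0.300 for FACS mice, where 5 of 8 did). The numbers were not taken as pairs, although every r of the FACS mice was positive. Naive replicate 6, SNI 3d replicate 3 and SCI 3d replicate 3, all with glia-rich wells only, share the title set, the day and the number in their titles. Whether same-numbered mice share a run was not tested. A fit with the replicate number as a block called 0 at SNI 1d and 0 at SNI 3d, with Tubb6 at 3.51 and 4.01 on the log2 scale. Over 10 such settings Tubb6 ranged from 3.18 to 4.66 at SNI 1d and from 3.41 to 4.89 at SNI 3d. For the settings with 0 called after SNI, the share of all genes called is not given here. These counts alone cannot tell a loss of calls among the 10 genes from fewer calls over all genes.

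Some log2 fold changes that were not called reversed, and not all of them are listed here. Over 2760 alternative values, 184 changes of sign lay within 1 SE or were not called. Without glia-rich wells the reversals included Nefl at SNI 3d (-0.89, then called), Nefh (-0.38) and Tubb6 (-0.41) at SCI 1d, Nefm for SNI 3d against SCI 3d (-0.31), and Nefm (0.078) and Tubb3 (0.068) for SCI 3d against SCI 1d. At SNI 1d, Nefl, Nefm and Nefh lay between 0.12 and 0.20 with all wells and between -0.46 and -0.27 without the glia-rich wells. At SNI 3d these ranges were 0.02 to 0.28 and -0.89 to -0.52, and at SCI 1d 0.09 to 0.27 and -0.45 to -0.28. With no factor the reversals included Nefh (-0.11) and Tubb6 (-0.060) at SCI 1d and Nefm for SNI 3d against SCI 3d (-0.10). Without wells over 3% they included Nefh at SCI 1d (-0.036), Nefm for SNI 3d against SCI 3d (-0.31), and Nefm (0.031) and Tubb3 (0.031) for SCI 3d against SCI 1d. With same-day naive mice they included Ina at SCI 1d (1.06), and with the replicate block Tubb6 at SCI 1d (-0.18).

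Leaving out each mouse in turn, the count at SNI 3d ranged from 1 to 2 and that for SNI 1d against SCI 1d from 0 to 1. The share of all genes called in these fits is not given here. Tubb2a was called at SNI 3d without SNI 3d replicate 2, naive replicate 5 or SCI 3d replicate 3, Tubb3 without SNI 3d replicate 3, and Tubb6 for SNI 1d against SCI 1d without naive replicate 5. At SCI 1d, Nefh ranged from -0.36 to 0.48, Prph from -0.092 to 0.37, Tubb2a from -0.077 to 0.72 and Tubb6 from -0.31 to 1.49. Nefm ranged from -0.29 to 1.03 for SNI 3d against SCI 3d and from -1.03 to 0.15 for SCI 3d against SCI 1d, where Tubb3 ranged from -0.61 to 0.099. For naive FACS neurons against whole DRG, a call was added for Nefl without naive replicate 1, Tubb2a without replicate 4, Tubb6 without replicate 5 and Tuba1a without replicate 6. Depth per mouse was ample, and the lowest values of Tubb6 (0.604 CPM), Tubb2b (0.390 CPM) and Ina are those that it limits most.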
